A study of Mus musculus with 41 samples.

Results

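Glycolysis and hypoxia response genes were followed as a set of 36 genes in mammary tumors of Trp53-null transplants. They were chosen by name, as the enzymes, transporters and oxygen-regulated genes of these pathways that the array carries under exactly those symbols. All 36 passed the filter on low signal, out of 20907 genes tested and 30175 genes on the array. Each gene was read through its probe of highest mean signal, and the value of a tumor is the log2 ratio of its RNA to a common mouse reference RNA on the same array.

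The study asked how a high animal fat diet (HFD), in puberty or in adulthood, acts on mammary tumorigenesis compared with a low fat diet (LFD). Duct fragments of Trp53-null BALB/c donors were transplanted into cleared mammary fat pads of young wild-type BALB/c females, so that tumor cells lack Trp53 while the vessels, stroma and immune cells of the host carry it. All 41 tumors share this background. Mice ate LFD throughout, HFD throughout, HFD in puberty and LFD from then on (HFD-LFD), or LFD in puberty and HFD from then on (LFD-HFD).

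There were 29 tumors of epithelial histology, 8 on LFD, 8 on HFD, 7 on HFD-LFD and 6 on LFD-HFD, and 12 spindle cell tumors, 3 on each regimen. Spindle cell tumors are poorly differentiated carcinomas of elongated cells. With a latency of a year as the limit, 14 epithelial tumors were early and 15 late, against 3 and 9 of the spindle cell tumors. Whole tumors were profiled, so that fewer cells of a type and less RNA per cell cannot be told apart in any value given here.

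Glycolysis breaks glucose down to pyruvate, which lactate dehydrogenase can turn into lactate for export, and tumors often run it at a high rate even with oxygen present. When oxygen falls, prolyl hydroxylases of the Egln family no longer mark the alpha subunits of hypoxia-inducible factor (HIF) for destruction. The factor then binds short DNA motifs near genes for glucose uptake, glycolysis, acid removal, mitophagy and vessel signals. Because HIF alpha is controlled mainly at the level of the protein, RNA of Hif1a or Epas1 does not measure HIF activity.

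The DNA letters that HIF is known to prefer, ACGTG and GCGTG, were searched on both strands in windows of 300 bases around the start sites, from 250 bases before to 50 bases after. The windows come from RefSeq on build GRCm38.p6, where 33 of the 36 genes matched. ACGTG was in a window of 22 of the 33 genes, or 66.7%, while 21.8% of all 27025 genes with a window held it. GCGTG was found in 66.7% of the matched genes and 35.2% of all genes, and either motif in 87.9% and 46.7%. Among genes with 1 window, either motif was found in 84% of the 25 matched genes and 43.1% of all. The matched windows also held more G and C, with a median of 62.3% against 52.7% over all windows, and its part in these shares was not tested. A match describes letters only and shows no binding.

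Shown here are the 250 bases before the start site of Slc2a1, the glucose transporter used below as the reference point for co-variation, and of the 5 genes with the highest correlation among the 19 paired with it below. Capitals mark ACGTG or GCGTG on either strand (the reverse strand reads CACGT or CACGC), and each run is written 5′ to 3′ on the gene's own strand. CACGTG holds ACGTG on both strands and was counted on each.
Slc2a1: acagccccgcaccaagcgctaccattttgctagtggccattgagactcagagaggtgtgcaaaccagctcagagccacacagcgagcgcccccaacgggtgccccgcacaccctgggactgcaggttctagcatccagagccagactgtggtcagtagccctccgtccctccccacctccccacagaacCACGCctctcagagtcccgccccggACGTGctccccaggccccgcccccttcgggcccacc
Adm: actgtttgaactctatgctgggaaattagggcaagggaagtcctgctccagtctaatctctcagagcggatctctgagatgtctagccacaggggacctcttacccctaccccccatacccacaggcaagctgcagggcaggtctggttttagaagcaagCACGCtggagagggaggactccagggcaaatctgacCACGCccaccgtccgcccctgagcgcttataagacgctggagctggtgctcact
Bnip3: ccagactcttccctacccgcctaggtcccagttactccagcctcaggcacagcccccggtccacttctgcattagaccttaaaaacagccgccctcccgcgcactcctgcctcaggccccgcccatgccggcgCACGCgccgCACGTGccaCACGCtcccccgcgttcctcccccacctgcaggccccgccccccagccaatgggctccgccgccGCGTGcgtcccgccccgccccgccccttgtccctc
Ldha: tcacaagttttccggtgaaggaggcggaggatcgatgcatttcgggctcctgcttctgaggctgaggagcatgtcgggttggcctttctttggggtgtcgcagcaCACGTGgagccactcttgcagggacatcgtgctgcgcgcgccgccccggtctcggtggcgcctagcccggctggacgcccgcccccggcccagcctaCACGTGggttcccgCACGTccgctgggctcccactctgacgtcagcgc
P4ha2: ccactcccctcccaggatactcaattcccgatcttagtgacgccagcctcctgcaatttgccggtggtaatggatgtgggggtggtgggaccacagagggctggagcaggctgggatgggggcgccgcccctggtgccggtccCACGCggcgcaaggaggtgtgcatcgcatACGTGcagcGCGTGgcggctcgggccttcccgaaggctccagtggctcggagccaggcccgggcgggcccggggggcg
Pgk1: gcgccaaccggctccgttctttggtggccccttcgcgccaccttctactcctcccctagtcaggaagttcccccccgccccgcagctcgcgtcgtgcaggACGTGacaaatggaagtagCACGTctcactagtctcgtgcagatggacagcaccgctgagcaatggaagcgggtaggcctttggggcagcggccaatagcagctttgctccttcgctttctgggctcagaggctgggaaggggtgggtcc
They lie at chr4:119108495-119108744 (Slc2a1, plus strand), chr7:110627407-110627656 (Adm, plus), chr7:138909507-138909756 (Bnip3, minus), chr7:46845554-46845803 (Ldha, plus, the first of its windows), chr11:54100674-54100923 (P4ha2, plus) and chrX:106186850-106187099 (Pgk1, plus). Slc2a1 had ACGTG at -36 and GCGTG at -61 from its start site. Adm had no ACGTG in its window and GCGTG at -90 and -54. Ldha held 5 matches to ACGTG, 4 of them in CACGTG pairs.

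Signs need a word on the dyes. The methods give Cy5 to the reference RNA, whereas the sample labels give Cy5 to the tumor. Tumors of female mice lack the Y chromosome, and on all 41 arrays the median log2 of Cy5 over Cy3 for 2 Y-linked probes was below 0, between -8.08 and -3.63. The labels' direction was used here, with Cy5 as tumor and Cy3 as reference, and this opposes the methods' text. A positive value means more signal from the tumor than from the reference RNA.

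The arrays differed in ways that bear on the comparisons. Spindle cell tumors were hybridised on 3 slides and epithelial tumors on the 8 others. The former were scanned in 1 session, the latter in 2 other sessions on another scanner, and their images were read with different versions of the Feature Extraction software. Scan, software version and histology thus cannot be told apart in any difference between them. Among epithelial tumors regimen largely followed slide, since all slides but 1 held a single regimen. On most of these slides all tumors were early or all were late. Among spindle cell tumors all HFD-LFD tumors shared a slide with 1 LFD tumor, and all HFD and LFD-HFD tumors were on the others. Differences between regimens in either histology, and between onset groups in epithelial tumors, therefore cannot be fully told apart from slide. Each array correlated with the mean of the others at r between 0.74 (spindle cell tumor M76R) and 0.956 over tested genes. On the array of epithelial tumor 60L 22.02% of spots were outliers, and it gave values for 15 of the 36 genes. The columns of the authors' normalized table matched their own scanner file on 38 of 41 arrays. The other 3, of HFD tumors 40R4A, 57R and 65R, matched each other's files, and which side is wrong cannot be told. The scanner files were followed, and the choice bears on onset, with 57R labelled late and 40R4A and 65R early. Signal from the tumor RNA was well above background on every array for 35 of the 36 genes, and for Egln1 on 12 of 29 epithelial and 8 of 12 spindle cell arrays. Some label numbers occur more than once, and 3 tumors may therefore share a mouse with another tumor.

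Spindle cell tumors were set against epithelial tumors to see whether these genes followed histology. The liver-type phosphofructokinase Pfkl, the glyceraldehyde-3-phosphate dehydrogenase Gapdh and the HIF subunit Hif1a were higher in spindle cell tumors, while the lactate dehydrogenase subunit Ldhb and the hexokinase Hk1 were lower. With limma and Benjamini-Hochberg adjustment over all genes at 0.05, 3 of 36 genes were called higher, against 7.93% of all genes tested, and 2 lower, against 12.2%. These shares were near the background or under it, so that the calls do not set the genes apart as a group. Of the 36 differences 27 lay above 0, and their median was +0.30, while the median over all genes was -0.07. In no gene of the set were the tumors of both histologies apart without overlap.

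**Figure D1:**
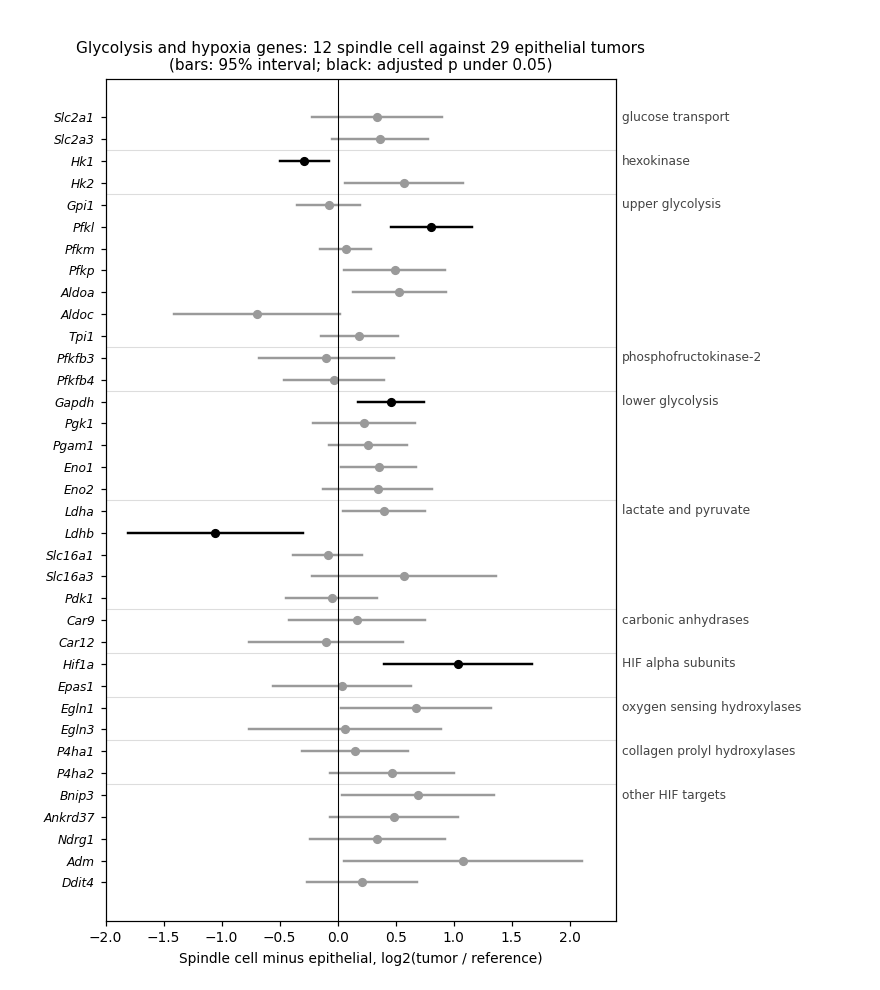
Difference between 12 spindle cell and 29 epithelial tumors for each of the 36 genes, on the log2 scale of tumor over reference, with its 95% interval and grouped by role. Black marks the 5 genes called at an adjusted p of 0.05 (Pfkl, Gapdh and Hif1a higher, Ldhb and Hk1 lower), grey the other genes, and 27 points lie right of 0.

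Glucose enters cells through the transporters Slc2a1 and Slc2a3. Slc2a1 spanned -0.36 to 2.78 (median 0.80) among 28 epithelial tumors, and -0.72 to 3.20 (median 1.30) among the spindle cell tumors. The spindle cell tumors thus spanned more than the whole epithelial range, and the difference of +0.34 (SE 0.28) did not pass (adjusted p = 0.409, limma). Slc2a3 was below the reference in nearly all tumors, at medians of -1.24 and -0.85, and its difference of +0.36 (SE 0.20) did not pass either.

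Hexokinases trap glucose in the cell as glucose 6-phosphate. Hk1, the form of most tissues, spanned -0.56 to 0.64 (median -0.06) among epithelial tumors, and -0.77 to 0.18 (median -0.34) among spindle cell tumors. The groups overlapped over most of their range. The difference of -0.29 (SE 0.10), 1.22-fold, passed at an adjusted p of 0.0435 by limma. It was called in 22 of 41 fits that left out 1 tumor. The probes of Hk1 did not vary together, with r of -0.077 and 0.0022 against the brightest across epithelial tumors, and its dimmest probe gave +1.06 (adjusted p = 0.0014), the opposite direction. In the separate channels Hk1 gave +0.37 (SE 0.18, adjusted p = 0.147) in the tumor RNA and +0.64 (SE 0.17) in the reference RNA. Hk2, the inducible form and a HIF target, spanned -1.77 to 1.68 among epithelial tumors, and -1.20 to 1.31 among spindle cell tumors, with a difference of +0.57 (SE 0.25) that did not pass (adjusted p = 0.103).

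Phosphofructokinase commits sugar to glycolysis and has the subunits Pfkl, Pfkm and Pfkp. Pfkl, read at chr10:77450926-77450985 of build mm9 on the minus strand, spanned -0.45 to 1.104 (median 0.55) among 27 epithelial tumors, and -0.05 to 1.92 (median 1.44) among spindle cell tumors. Most spindle cell tumors lay above the highest epithelial tumor, and a few lay within the epithelial range. The difference of +0.81 (SE 0.17), 1.75-fold, had an adjusted p of 0.00099 by limma. It was called in all 41 fits without 1 tumor. In the separate channels, however, Pfkl differed by -1.01 (SE 0.07) in the reference RNA and by -0.19 (SE 0.21, adjusted p = 0.558) in the tumor RNA, although the labels name the same reference RNA for every array.

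Pfkp, the platelet form, spanned -1.21 to 1.45 among epithelial tumors, and 0.10 to 1.93 among spindle cell tumors, a difference of +0.49 (SE 0.22) with an adjusted p of 0.0994. Pfkm, the muscle form, was far below the reference in all tumors, between -3.07 and -1.83, and hardly differed in the mean (+0.07, SE 0.11). The isomerase Gpi1 stayed between -1.34 and 0.01 in both groups together, with a difference of -0.08 (SE 0.13). These 3 genes were not called.

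The aldolases split the sugar into triose phosphates, and Tpi1 interconverts them. Aldoa spanned -2.45 to -0.21 (median -1.17) among epithelial tumors, and -1.49 to 0.34 (median -0.67) among spindle cell tumors. It stayed just short of the limit with +0.53 (SE 0.20) and an adjusted p of 0.0517. Aldoc, the brain form, spread widely in spindle cell tumors, from -2.01 to 2.62, and gave -0.70 (SE 0.35, adjusted p = 0.161). For Tpi1 the brightest probe gave +0.19 (SE 0.16) and the other probe +0.66 (SE 0.17, adjusted p = 0.0057), so that the call depended on the probe. Pfkfb3 and Pfkfb4, which make the activator of phosphofructokinase, gave -0.10 (SE 0.29) and -0.03 (SE 0.22).

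The later steps of glycolysis yield ATP. Gapdh, read at chr6:125111869-125111928 of mm9, spanned -1.16 to 0.26 (median -0.55) among 28 epithelial tumors, and -0.60 to 0.46 (median -0.03) among spindle cell tumors. The groups overlapped, with the spindle cell tumors in the upper part of the epithelial range and above. The difference was +0.46 (SE 0.14), 1.38-fold, with an adjusted p of 0.0191, made up of +0.22 (SE 0.21) in the tumor channel and -0.26 (SE 0.17) in the reference channel. It was not called in the authors' normalized table (+0.63, adjusted p = 0.0758, limma). All 8 Gapdh probes gave a higher mean in spindle cell tumors, from +0.46 to +1.001, each called. Gapdh has many near-identical copies in the mouse genome, and 2 of its probes are listed on chromosomes 7 and 8, so that its signal may be shared with them.

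The other 4 genes of this stretch were also higher in the mean and were not called. Pgk1, the first ATP-yielding kinase, gave +0.23 (SE 0.22), Pgam1, the mutase, +0.26 (SE 0.17), Eno1, the common enolase, +0.35 (SE 0.16, adjusted p = 0.109) and Eno2, the neuronal enolase, +0.34 (SE 0.23). Pgk1, Pgam1 and Eno1 also have near-identical copies, and the Pgk1 probe is listed on chromosome 3 although the gene lies on X. In the authors' normalized table Eno1 went the other way, with -1.03 and an adjusted p of 0.0759.

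Lactate dehydrogenase is built from Ldha, a HIF target that favors lactate, and Ldhb, which favors pyruvate. Ldhb, read at chr6:142438770-142438829 of mm9, spanned -3.36 to 1.19 (median -1.05) among 28 epithelial tumors, and -4.03 to -0.17 (median -1.96) among spindle cell tumors. The ranges overlapped widely. The difference of -1.05 (SE 0.37), 2.08-fold, had an adjusted p of 0.0398, with -0.87 (SE 0.39, adjusted p = 0.104) in the tumor channel and +0.17 (SE 0.08) in the reference channel. The call was lost without 27L4A, 90R, M118R, M129L, M33R, M63L or M84R, each left out alone, with an adjusted p of up to 0.096. Ldha spanned -1.55 to 0.54 among epithelial tumors, and -1.13 to 0.50 among spindle cell tumors, at +0.40 (SE 0.17, adjusted p = 0.0981). Its other probes, dimmer, were both called, at +0.77 and +0.85, and correlated with the brightest one at r of 0.36 across epithelial tumors.

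Lactate leaves cells through Slc16a3, a HIF target, and moves both ways through Slc16a1, while Pdk1 keeps pyruvate out of mitochondria. Slc16a3 spanned -3.38 to 1.16 among epithelial tumors, and -2.37 to 1.23 among spindle cell tumors, and its difference of +0.57 (SE 0.39) did not pass. Slc16a1 (-0.08, SE 0.15) and Pdk1 (-0.05, SE 0.19) differed little in the mean. The same held for the carbonic anhydrases, which handle acid at the cell surface, with +0.17 (SE 0.29) for Car9 and -0.10 (SE 0.33) for Car12.

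Hif1a and Epas1 encode the HIF alpha subunits. Hif1a, read at chr12:75047269-75047329 of mm9, spanned -3.45 to 1.39 (median -0.41) among 29 epithelial tumors, and -0.40 to 1.65 (median 0.48) among spindle cell tumors. All spindle cell tumors lay above the epithelial median, and the groups overlapped from there on. The difference was +1.04 (SE 0.32), 2.05-fold, with an adjusted p of 0.0168, and it passed in all 41 fits without 1 tumor. It did not pass by limma in the authors' normalized table (+0.90, adjusted p = 0.0805) or with the mean of the Hif1a probes (+0.62, adjusted p = 0.0663). In the tumor channel alone it was +1.23 (adjusted p = 0.0199), with +0.17 (SE 0.14) in the reference channel. A second, dim Hif1a probe gave +0.20 (adjusted p = 0.646) and correlated with the first at r = 0.20 across epithelial tumors. Epas1, the subunit prominent in endothelium, gave +0.04 (SE 0.29).

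Of the hydroxylases that sense oxygen, Egln1 gave +0.68 (SE 0.32, adjusted p = 0.129) on a dim probe, and Egln3, itself a HIF target, +0.06 (SE 0.41). P4ha1 and P4ha2, which hydroxylate collagen, gave +0.15 (SE 0.23) and +0.47 (SE 0.26). None of these was called.

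The further HIF targets were all higher in the mean, and none was called. Adm, the vessel peptide adrenomedullin, spanned -3.59 to 4.11 (median 0.93) among epithelial tumors, and -0.05 to 3.97 (median 1.89) among spindle cell tumors. Its difference of +1.08 (SE 0.51) was the largest of the set, with an adjusted p of 0.127. Bnip3, a mitophagy receptor, gave +0.69 (SE 0.33) with the same adjusted p of 0.127, Ankrd37 +0.48 (SE 0.27), Ndrg1 +0.34 (SE 0.29) and Ddit4, an inhibitor of mTOR signaling, +0.21 (SE 0.24). In the tumor channel alone Adm reached +1.57 and was called (adjusted p = 0.019).

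**Figure D2:**
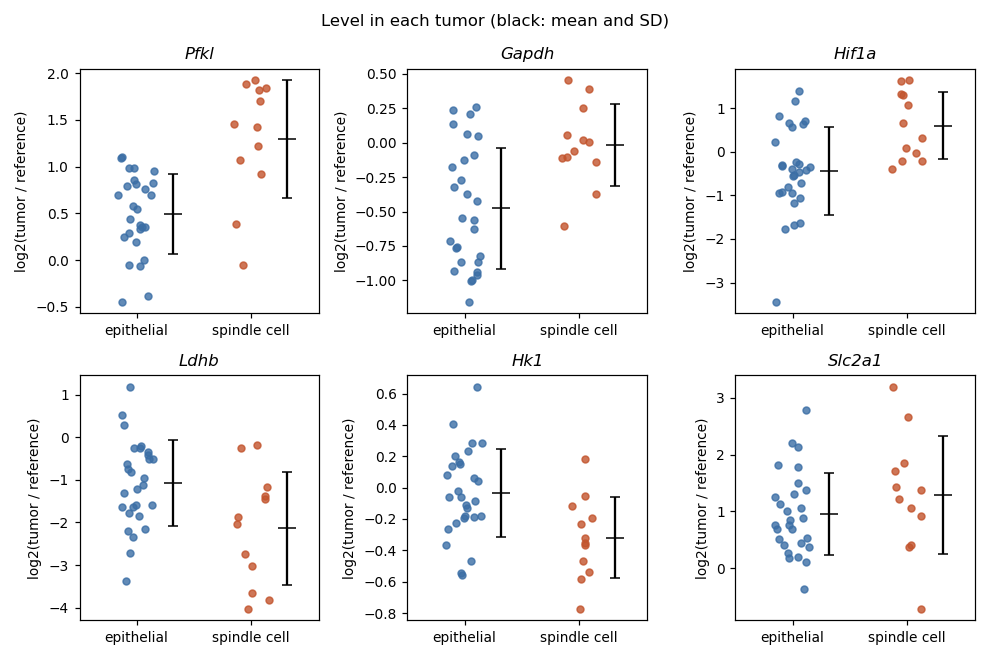
Level of the 5 called genes and of Slc2a1 in each tumor, as log2 of tumor over reference, in epithelial (blue) and spindle cell tumors (red), with mean and SD in black. In every panel the groups overlap: the highest epithelial value of Pfkl, 1.104, lies above the lowest spindle cell value, -0.05.

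The wider pathways moved in both directions. Of 34 further glycolytic genes 27 were measured, and 3 were called higher and 1 lower, against 7.93% and 12.2% of all genes, with a median difference of +0.07. The higher ones were Pgk2, Hk3 (+0.67, SE 0.22) and Pkm2, the pyruvate kinase of most tumors (+0.59, SE 0.19), and the lower one was Pdhb, a subunit of pyruvate dehydrogenase (-0.60, SE 0.14). Hk3, Pkm2 and Pdhb differed more in the reference channel (-0.44, -0.66 and +0.76) than in the tumor channel (+0.26, -0.05 and +0.18). Pgk2, the phosphoglycerate kinase of sperm, ran from -0.13 to 1.20 in the epithelial tumors and from 0.92 to 7.49 in 11 spindle cell tumors, a difference of +5.19 (SE 0.32), of which +2.90 (SE 0.30) was in the tumor channel and -2.31 (SE 0.39) in the reference channel.

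Of 37 further HIF pathway genes 35 were measured, and 8 were called higher and 3 lower, against 7.93% and 12.2% of all genes, with a median difference of +0.20. The largest rises were in Stc1, a secreted glycoprotein (+1.85, SE 0.45), Plod1, a collagen lysyl hydroxylase (+1.24, SE 0.25), the lysyl oxidases Lox (+1.103, SE 0.40) and Loxl2 (+0.95, SE 0.26), and Igfbp3, a binding protein of insulin-like growth factors (+0.91, SE 0.28). Plod1, Lox and Loxl2 were also called in the tumor channel alone, at +0.90, +1.64 and +1.26, whereas Stc1 (+1.18, adjusted p = 0.056) and Igfbp3 (+0.81, adjusted p = 0.092) were not. The genes called lower were Insig2, a brake on sterol synthesis (-0.58, SE 0.14), Kdm3a, a histone demethylase (-0.56, SE 0.17), and Bnip3l, a mitophagy receptor (-0.53, SE 0.16). For Insig2 and Kdm3a the tumor channel gave -0.02 and -0.15, and the reference channel +0.55 and +0.39. In the comparisons of diet, onset and their interactions with histology 1 gene of both lists was called, Pgam5, a mitochondrial phosphatase, with +0.71 (adjusted p = 0.0994) for the interaction of pubertal HFD and histology.

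Some markers of other cell types differed between histologies too, read as ratios without the separate channels. Of 9 mesenchymal markers 6 were called higher, with Vim at +1.19 (SE 0.30) and Fn1, not called, at +0.58 (SE 0.41). From the lowest to the highest gene of this list, means were -2.29 to -0.28 in epithelial tumors, and -2.29 to 0.32 in spindle cell tumors. Of 7 endothelial markers 4 were called higher, with Pecam1 at +0.87 (SE 0.20) and Cdh5, not called, at +0.97 (SE 0.37). The means of these 7 genes ran from -2.31 to 0.45 in epithelial tumors and from -1.27 to 1.09 in the others. None of 9 epithelial markers was called (Epcam -0.77, SE 0.46, and Cdh1 -0.73, SE 0.36), and their mean level ran from -0.25 to 4.25 and from -1.45 to 2.79, and each of the 9 was above background on most arrays of either histology. Of the other lists, 1 of 8 macrophage markers was called higher, and 1 of 6 T cell, 2 of 5 neutrophil and 2 of 8 skeletal muscle markers were called lower. Over all genes 7.93% were called higher and 12.2% lower, so that 1 or 2 calls in such short lists do not set them apart. No marker of the adipocyte, basal epithelial or erythroid lists was called. The part of these cells in the differences above was not tested.

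Both channels were compared because the reference RNA should not depend on histology. For 13 of the 36 genes the reference channel differed more between histologies than the tumor channel did. For 35 of the 36 the tumor channel varied more from tumor to tumor. With slide as a random block only Pfkl was still called (adjusted p = 0.00636), while Hif1a stood at an adjusted p of 0.0512 and Gapdh at 0.06.

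Apart from the contrasts, the genes also varied between tumors of the same histology. The median SD was 0.66 in epithelial tumors, against 0.56 over all genes, and 0.72 in spindle cell tumors, against 0.51. In epithelial tumors 24 of the 36 genes, and in spindle cell tumors 27, had an SD above the median of all genes. Adm covered 7.70 on the log2 scale or 208-fold among epithelial tumors, and Egln3 45.9-fold. The lowest Adm value was that of 60L alone, the array with the most outlier spots, and without it Adm covered 5.33 or 40.3-fold, less than Egln3. Pfkm and Hk1 covered the least, 2.29-fold and 2.30-fold.

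**Figure D3:**
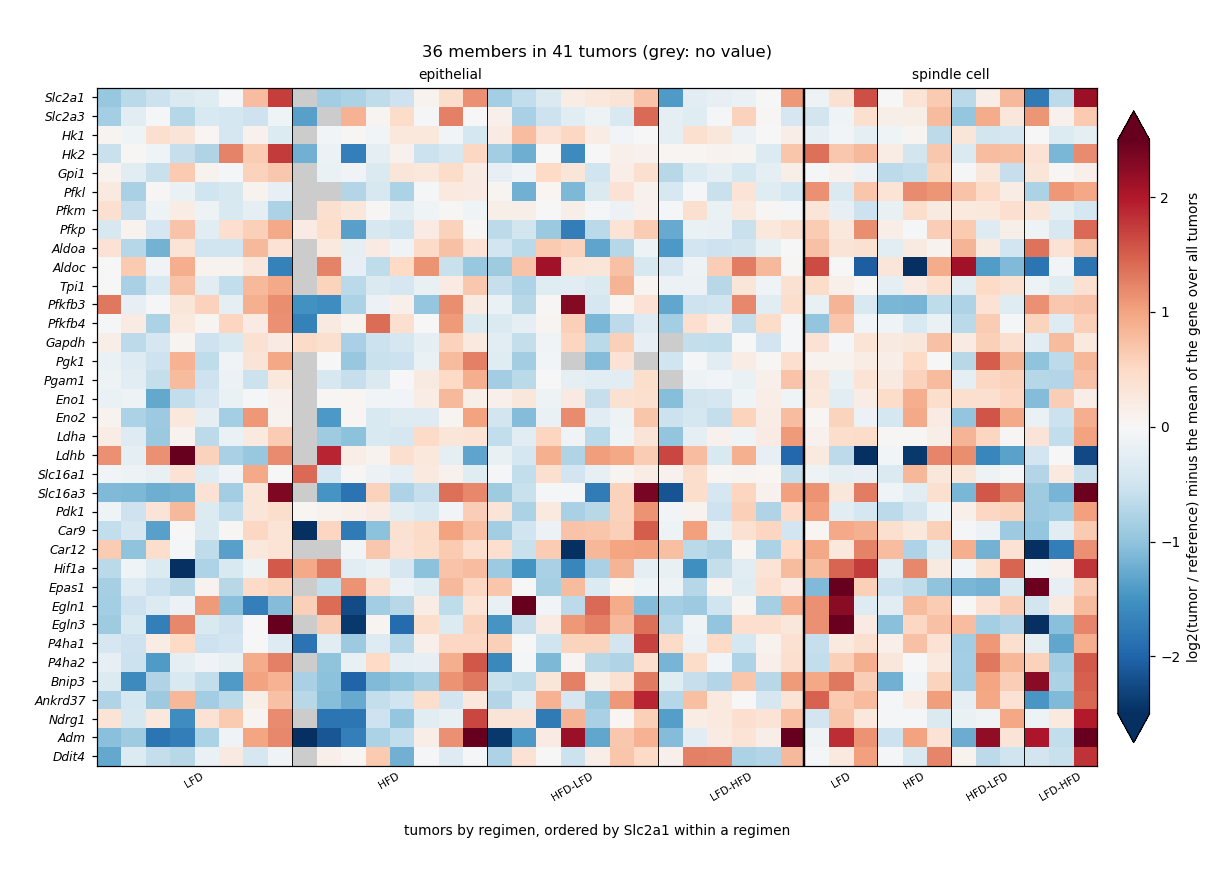
The 36 genes (lines) in 41 tumors (columns), as log2 of tumor over reference minus the mean of the gene, red above and blue below it, grey without a value. Tumors are grouped by histology and regimen and ordered by Slc2a1 within each. In the last column of each epithelial block, where Slc2a1 is highest, Adm, Bnip3 and Slc16a3 are red, and no regimen is red or blue throughout.

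Hypoxia genes were then compared with Slc2a1, itself a HIF target, across the tumors of each histology, in 19 pairs with Slc2a1 and 13 pairs of paralogs. Permutation tests with Benjamini-Hochberg adjustment over the 32 pairs were used, and 11 of the 19 pairs with Slc2a1 passed in epithelial tumors. The pairs were chosen with earlier results of these data known, and the adjustment does not account for that choice. Adm followed it most closely, with r = 0.80 and rho = 0.83 over 28 tumors (adjusted permutation p = 0.00016 for r and 0.00032 for rho, from 1e-05, the smallest p that 100000 draws can give). Without 17R and 66L, the tumors farthest from the median of Slc2a1, r was 0.80, and with values centred within slides it was 0.81.

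**Figure D4:**
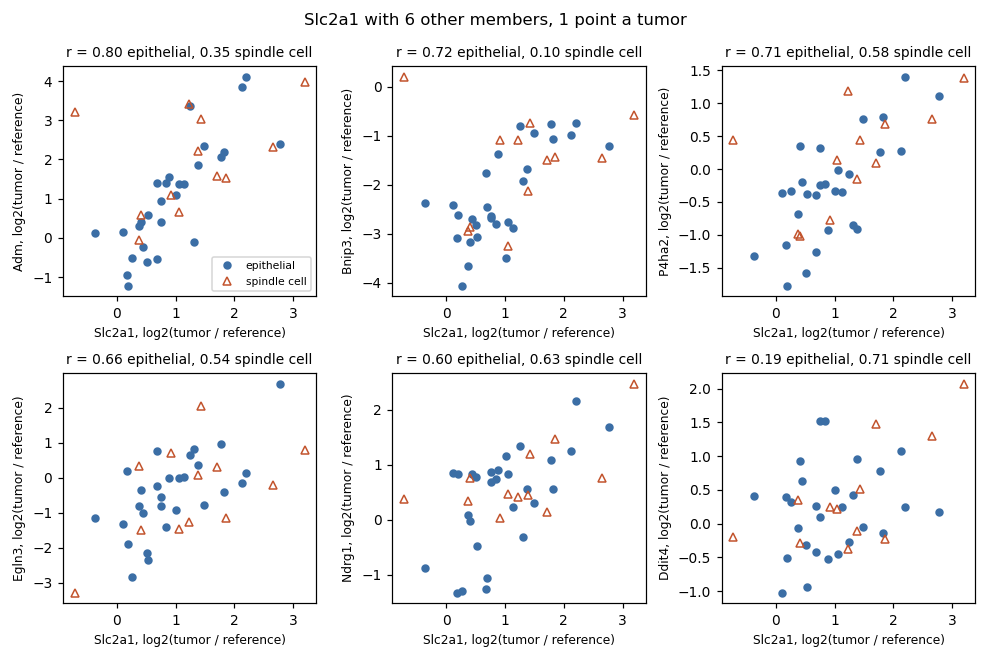
Slc2a1 against 6 other genes of the set, both as log2 of tumor over reference, with 1 point a tumor, blue circles for epithelial and open red triangles for spindle cell tumors. The points of Adm rise with Slc2a1 across the epithelial tumors (r = 0.80), whereas those of Ddit4 spread widely around any line (r = 0.19).

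Bnip3 (r = 0.72, rho = 0.65), Ldha (r = 0.71, rho = 0.69) and P4ha2 (r = 0.71, rho = 0.62) came next, each over 28 tumors, with adjusted permutation p between 0.00016 and 0.00032 for r and between 0.0019 and 0.0035 for rho. Pgk1 followed over 26 tumors (r = 0.66, rho = 0.60) and Egln3 over 28 (r = 0.66, rho = 0.62), both with an adjusted permutation p of 0.0012 for r, and 0.0059 and 0.0035 for rho. Without 17R and 66L the r of these 5 genes lay between 0.48 (Pgk1) and 0.69 (Bnip3). For Ldha the relation belonged to its brightest probe, and its other probes gave r of 0.30 and 0.32. All 3 Bnip3 probes gave r between 0.66 and 0.72, and both Egln3 probes 0.63 or more.

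Lower but still past the limit were Ndrg1 (r = 0.60), Hk2 (r = 0.55), Ankrd37 (r = 0.55), Car9 (r = 0.52) and Pfkfb3 (r = 0.47), with adjusted permutation p between 0.0037 and 0.0299. Their rho lay between 0.45 and 0.61 and passed for each (adjusted permutation p up to 0.0479). Without 17R and 66L their r lay between 0.35 (Hk2) and 0.54 (Car9). Without 42L4B, 60L and M86R, Pfkfb3 no longer passed by r (0.43, adjusted permutation p = 0.0575). Here 42L4B was the only epithelial tumor lost from the pairs with Slc2a1, because 60L had no value of Slc2a1. The 11 genes also passed with values centred within slides.

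The other 8 pairs with Slc2a1 did not pass in epithelial tumors, by r or by rho (adjusted permutation p between 0.166 and 1 for rho). Ddit4 gave r = 0.19, Pfkfb4 r = 0.18, Car12 r = 0.10 and Egln1 r = -0.01, with adjusted permutation p between 0.454 and 0.971. P4ha1 (r = 0.30) and Pdk1 (r = 0.29) missed the limit as well, at adjusted permutation p of 0.186 and 0.201, although Pdk1 reached r = 0.53 (adjusted permutation p = 0.0252) with values centred within slides. Hif1a gave r = 0.40 (rho = 0.29, adjusted permutation p = 0.0851 for r), and r = 0.50 without 42L4B, 60L and M86R, which passed (adjusted permutation p = 0.0203). Epas1 gave r = 0.34 (rho = 0.35, adjusted permutation p = 0.152 for r). The value of Epas1 depended on the probe, as its other probes gave r of -0.10 and 0.64. The second Hif1a probe gave r = 0.32.

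Ranked by r with Slc2a1 in epithelial tumors among 20906 genes, Adm was the second and Slc16a3 the third (r = 0.78), and Bnip3, Ldha, P4ha2 and Pgk1 stood at ranks 12, 13, 15 and 28. Of the 35 other genes of the set 16 were in the top 1% and 21 in the top 5%. Their median r was 0.44, while the median over all genes was -0.02. This is a description over the same tumors and arrays, which all these r share. Opposite signs also occurred, with r = -0.45 for Pfkm, -0.40 for Ldhb, -0.32 for Aldoc and -0.26 for Hk1. For Hk1 the negative sign belonged to its brightest probe, and its other probes gave r of 0.26 and 0.0003.

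Pairs of paralogs seldom passed. Of 13 pairs in epithelial tumors only Hk1 with Hk2 passed by r (r = -0.57, adjusted permutation p = 0.0064), in opposite directions. Its rho of -0.43 did not pass (adjusted permutation p = 0.0602), nor did r within slides (-0.38, adjusted permutation p = 0.241). The pair also rests on the brightest Hk1 probe, which did not vary with the other Hk1 probes (r of -0.077 and 0.0022). Ldha and Ldhb gave r = -0.38 (rho = -0.30, adjusted permutation p = 0.0898 for r), Slc2a1 and Slc2a3 r = 0.15 (rho = 0.09, adjusted permutation p = 0.578 for r), and P4ha1 and P4ha2 r = 0.14 (rho = 0.15, adjusted permutation p = 0.578 for r).

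In the 12 spindle cell tumors 4 of the same 32 pairs passed. P4ha1 with P4ha2 had r = 0.86 and rho = 0.80 (adjusted permutation p = 0.0112 for r), and r = 0.72 without M86R and M128L. Slc2a1 with Hif1a had r = 0.79 and rho = 0.82 (adjusted permutation p = 0.0186 for r), and r = 0.73 without M76R and M84R, but r = 0.48 (adjusted permutation p = 0.252) after another background correction of the same spots. Slc2a1 with Ankrd37 had r = 0.76 and rho = 0.62 (adjusted permutation p = 0.0351 for r), which fell to r = 0.52 without M76R and M84R and rests in part on them. Egln1 with Egln3 had r = 0.77 and rho = 0.78 (adjusted permutation p = 0.0351 for r), but r = 0.50 without M32L and M76R and r = 0.09 after that other background correction. By rho 3 of these pairs passed, each at an adjusted permutation p of 0.0459, and Slc2a1 with Ankrd37 did not (0.122). Within slides only P4ha1 with P4ha2 among these 4 still passed (r = 0.89, adjusted permutation p = 0.0447). Slc2a1 with Adm had r = 0.35 and rho = 0.46 here (adjusted permutation p = 0.455 for r), and whether the histologies differ in r was not tested.

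Diet was then compared within each histology, although regimen largely followed slide in epithelial tumors and partly did so in spindle cell tumors. None of the 36 genes was called between the 4 regimens in epithelial tumors, where limma called 0.474% of all genes at an adjusted p of 0.10, and 1 gene of the set and 13% of all genes had an unadjusted p under 0.05. That gene was Eno1 (adjusted p = 0.367, limma over 28 tumors). Eno1 ran from -0.51 to 0.88 (median 0.60) in LFD, from 0.69 to 1.58 (median 0.81) in HFD, from 0.18 to 1.18 (median 0.99) in HFD-LFD and from -0.30 to 0.93 (median 0.50) in LFD-HFD tumors. The 4 ranges overlapped.

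Slc2a1 had nearly the same mean on every regimen, 1.01 ± 0.88 (SD, n = 8) in LFD, 0.89 ± 0.75 (n = 7) in HFD, 1.003 ± 0.57 (n = 7) in HFD-LFD and 0.88 ± 0.79 (n = 6) in LFD-HFD tumors. Adm spread widely within each, from -0.62 to 2.39 in LFD, from -3.59 (60L) to 4.11 in HFD, from -1.22 to 3.36 in HFD-LFD and from 0.12 to 3.86 in LFD-HFD tumors. Among the 6 pairwise contrasts of regimens, the smallest adjusted p values were 0.319 for P4ha1, higher by 0.71 (SE 0.31) in HFD-LFD than in HFD tumors, and 0.333 for Pfkp, with -0.70 (SE 0.32) in HFD-LFD compared with LFD tumors.

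In spindle cell tumors the regimens gave 0 calls among the 36 genes and 0% among all genes, with 1 gene of the set, and 781 of 20899 genes, at an unadjusted p under 0.05. That gene was Pfkfb3 (adjusted p = 0.977, limma). Its values were 0.53, 0.71 and 1.76 in LFD, -0.27, -0.25 and 0.26 in HFD, 0.14, 0.60 and 1.27 in HFD-LFD and 1.58, 1.62 and 2.04 in LFD-HFD tumors. The LFD-HFD tumors were apart from the HFD and HFD-LFD tumors, with 3 tumors in each group. The LFD-HFD and HFD-LFD tumors shared no slide, so that diet and slide cannot be told apart between them.

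Pubertal HFD, the HFD and HFD-LFD tumors against the others with both histologies together, gave 0 calls in the set with limma, against 0.00957% of all genes, and 4 genes of the set and 6.95% of all genes had an unadjusted p under 0.05. The SAM statistic, named in the methods but coded anew here as an alternative test, called none of them either. Eno1 came closest. It ran from 0.18 to 1.68 (median 1.01) in 20 tumors with pubertal HFD and from -0.51 to 1.38 (median 0.62) in 20 without. The difference of +0.49 (SE 0.13), 1.40-fold, had an adjusted p of 0.40, and it was +0.46 (SE 0.15) in epithelial and +0.54 (SE 0.26) in spindle cell tumors. Hk2 (-0.54, SE 0.23) and Pfkfb3 (-0.55, SE 0.25) were lower in the mean, at adjusted p of 0.648 and 0.672. The median difference over the 36 genes was +0.01, and -0.02 over all genes.

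Adult HFD, the HFD and LFD-HFD tumors against the others, gave 0 calls in the set and 0% among all genes, with 1 gene of the set and 955 of all genes at an unadjusted p under 0.05 by limma. That gene was Slc2a3, with +0.39 (SE 0.19, adjusted p = 0.933). It ran from -2.42 to 0.19 in 19 tumors with adult HFD and from -2.03 to 0.34 in 21 without. The ranges were nearly the same, and the median difference over the 36 genes was -0.07.

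Time of onset was compared in epithelial tumors first, where most slides held only early or only late tumors. Early against late gave 0 calls in the set with limma, against 0.143% of all genes, and 1 gene of the set and 13.2% of all genes had an unadjusted p under 0.05. Slc16a1 ran from 0.39 to 2.25 (median 0.87) in 14 early and from 0.21 to 1.19 (median 0.68) in 15 late tumors, a difference of +0.35 (SE 0.15) with an adjusted p of 0.318. Pfkp followed with +0.47 (SE 0.23, adjusted p = 0.382). The highest early value of Slc16a1 was that of 60L, the array with the most outlier spots, and the next highest was 1.78. In all tumors together 0 genes of the set were called, against 0.0143% of all genes, and in spindle cell tumors, 3 early against 9 late, 0 against 0%, with no gene of the set at an unadjusted p under 0.05 in either, compared with 9.07% and 2.03% of all genes. The SAM statistic called none of the 36 in these 3 comparisons.

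Lastly, effects were compared between histologies through interaction terms. Pubertal HFD by histology called 1 of the 36 genes, Epas1, against 0.426% of all genes at an adjusted p of 0.10. Adult HFD by histology called 0 genes of the set and 0% of all genes (359 of them, and 0 of the set, at an unadjusted p under 0.05), and onset by histology 0 of the set and 0.00478% of all genes, with 1 gene of the set at an unadjusted p under 0.05.

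Epas1 in spindle cell tumors was -2.22, -0.51 and 1.77 on LFD and -1.32, -0.50 and 1.35 on LFD-HFD, against -2.13, -1.74 and -1.64 on HFD and -2.30, -2.26 and -1.49 on HFD-LFD. With pubertal HFD all 6 tumors were low, while without it the 6 tumors spread over most of the range of the gene. The lowest of the latter, M18L, lay among the tumors of pubertal HFD. M18L shared its slide with the HFD-LFD tumors, and all tumors of that slide lay between -2.30 and -1.49. For the HFD-LFD tumors diet and slide thus cannot be fully told apart. In epithelial tumors Epas1 ran from -1.93 to -0.55 (median -1.32) in 14 tumors without and from -1.93 to 0.01 (median -1.09) in 14 with pubertal HFD. The effect of pubertal HFD was -1.68 (SE 0.58, adjusted p = 0.44) in spindle cell and +0.31 (SE 0.20, adjusted p = 0.635) in epithelial tumors. Their difference was -1.998 (SE 0.50, adjusted p = 0.0844, limma over 40 tumors, without 60L, which had no value).

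**Figure D5:**
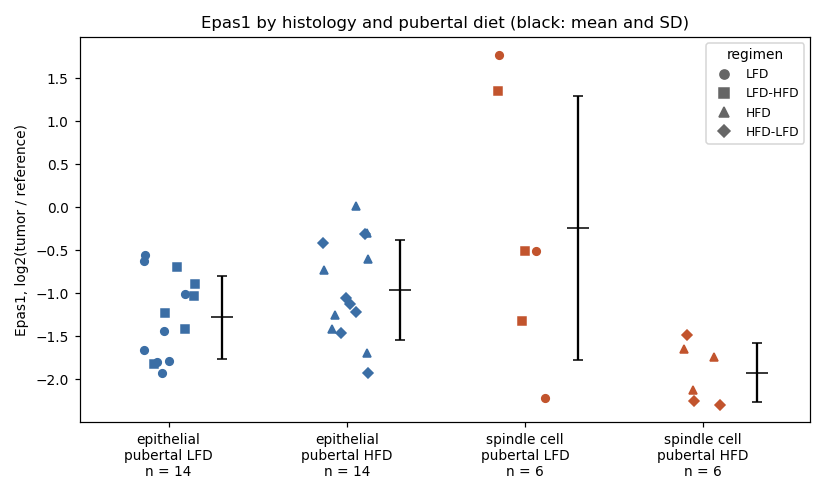
Epas1 in each tumor, as log2 of tumor over reference, by histology and pubertal diet, with the regimen as the symbol and mean and SD in black. The 6 spindle cell tumors with pubertal HFD lie between -2.30 and -1.49, and those without run from -2.22 to 1.77.

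The Epas1 call rested on single tumors, on the probe and on the model. It was lost in 23 of 41 fits without 1 tumor, with adjusted p from 0.00628 (without M18L) to 0.209 without M32L and 0.248 without M76R, which hold the highest values. It was also lost when slide entered as a random block (-1.91, adjusted p = 0.158), with 1 tumor per shared label number (-1.97, adjusted p = 0.186) and in the tumor channel alone (-1.70, adjusted p = 0.151). The array of M76R was also the one that correlated least with the others. The other Epas1 probes gave -0.12 (adjusted p = 0.864) and -0.84 (adjusted p = 0.556), and correlated with the probe used at r of 0.13 and 0.78 over all tumors.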

How the data were processed

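RNA of 41 tumors was hybridised by the authors with a reference RNA on 2-colour Agilent 4x44K arrays, whose number limits the precision. The deposited scanner files hold spot intensities, background-subtracted and dye-normalized with Feature Extraction (per the file headers 10.5.1.1 for spindle cell and 11.0.1.1 for epithelial tumors, 8.5.1.1 per the labels), and their log10 ratio of Cy5 over Cy3. The authors also deposited a table of Lowess-normalized log2 ratios, used here as an alternative. From 43020 spots per array, log2 ratios were computed from the processed intensities, outlier spots were set to missing, and probes over a signal of 10 in both channels on 80% of arrays were kept. Groups were compared with limma 3.58.1 in R 4.3.3, with Benjamini-Hochberg adjustment over all genes at 0.05 for histology, as in the methods, and 0.10 elsewhere. Pairs of genes were tested with 100000 permutations. The SAM statistic was coded anew rather than run with the package of the methods, and its calls can differ from theirs. It used 100 permutations and missing values filled from the 10 nearest probes. The scripts were tested on simulated data. The 36 genes, the pathway and marker lists and the pairs were chosen with earlier results of these data known. All 36 genes are named, and of the pathway lists up to 5 genes called in each direction, with the largest difference, and of the marker lists the leading ones. Alternatives were other background corrections, scalings, filters, probes, thresholds and covariates, slide as a random block, and leaving out tumors.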

Additional observations from a re-analysis of the deposited data

Results flagged for a closer look

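Among 146 groups of 4 to 10 tumors, 9 held a tumor whose gap to the nearest other tumor exceeded Dixon's limit, and chance alone gives about 1 in 20 such groups. In HFD tumors Eno1 was 1.578 in 62L, with the next tumor at 0.946, and Slc16a1 was 2.246 in 60L, the array with the most outlier spots. In HFD-LFD tumors Slc2a3 was 0.3442 in 1 tumor, with the next at -0.9419, and another held both the highest Pfkfb3 (3.195) and the lowest Car12 (-1.294). In LFD tumors 17R held the lowest Aldoc (-1.179) and the highest Slc16a3 (1.125). In LFD-HFD tumors 90R held the lowest Aldoa (-2.447) and the lowest Ndrg1 (-0.8858).

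The effect of pubertal HFD on Epas1 differed between histologies by the interaction term, at -1.998 on the log2 scale with an adjusted p of 0.0844 (limma). It was -1.68 in spindle cell and +0.31 in epithelial tumors. The call was lost when slide entered as a random block (adjusted p = 0.158), with 1 tumor per shared label number (adjusted p = 0.186) and in 23 of 41 fits without 1 tumor.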

How the results depend on the processing

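Of 6537 values under alternatives, 6448 kept their side of the threshold, or their size for values without a test. Most of these values belong to comparisons in which no gene of the set was called. Some alternatives could not change a value, as no gene of the set had a saturated spot to avoid. The total therefore says little about the genes that were called. Differences that were not called could still change sign, as Eno1 (-1.03) and Ldha (-0.22) did in the authors' table and Slc2a3 (-0.16) in the tumor channel. Pfkl and Hk1 turned with the tumor channel alone, to -0.19 (-0.1865) and 0.37 (0.3684), and Hk1 also with the mean of all probes (0.1332) and with its dimmest probe (1.06). Of the 36 genes, 3 were higher in spindle cell tumors, but 6 with normexp, without 42L4B, 60L and M86R, at 0.10, and with regimen and onset as covariates, and 1 with slide as a random block. Without 1 tumor there were 3 to 5, with 5 without 17R or M86R. The genes called also changed. Hif1a and Gapdh were lost in the authors' table, and Hif1a with the mean of probes. In the tumor channel Pfkl and Gapdh were lost, while Ldha and Adm were gained. In place of 2 lower genes there was 1 with centred arrays, the authors' table, the mean of probes or without 42L4B, 60L and M86R, 0 with the tumor channel or the slide block, and 0 to 3 without 1 tumor (0 without 27L4A, M118R, M129L, M33R or M84R, and 3 without M128L). With the tumor channel 2 genes, Hk1 and Eno1, were called between regimens of epithelial tumors in place of 0. For the interaction of pubertal HFD and histology, 1 call became 2 with normexp (Epas1 and Egln1), 0 with the tumor channel, outlier spots kept, the mean of probes, the slide block, 1 tumor per shared label number or a limit of 0.05, and 0 to 1 without 1 tumor. In spindle cell tumors 4 correlated pairs became 1 with normexp and 2 without the 3 tumors named above, and in epithelial tumors the count was 12 under each, although Slc2a1 with Pfkfb3 was lost (adjusted permutation p = 0.0575) and Slc2a1 with Hif1a gained (adjusted permutation p = 0.0203) without those 3. The cause was not tested.

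Over all genes, 4217 calls between histologies became 2549 with the slide block and 7892 without a filter. The 99 between epithelial regimens became 1834 with the tumor channel, 200 with the authors' table, 166 without those 3 tumors, 14 at 0.05, 10 with 1 tumor per shared label number and 0 with the slide block. The 2 for pubertal HFD ranged from 0 to 24 (SAM), the 30 for onset in epithelial tumors from 0 (slide block) to 1011 (SAM), the 3 for onset in all tumors from 0 to 223 (SAM), and the 89 for the interaction from 22 to 2361 (normexp). No paired analysis was possible because in no comparison did the groups have 2 label numbers in common. The arrays give one value per tumor, and spot brightness limits mainly Egln1 and the second Hif1a probe.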
